A study of Mus musculus with 16 samples.

Results

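Liver zonation genes are hepatocyte genes whose expression depends on the position of the cell between the portal tract and the central vein. Here 10 of them, of 24984 genes in the count tables, were followed through all 16 libraries. They were chosen by name from the known zones of the liver lobule, with earlier results of these data known. *Glul*, *Oat*, *Lgr5*, *Axin2* and *Tbx3* made up the pericentral set of 5, and *Hal*, *Sds*, *Gls2*, *Ass1* and *Arg1* made up the periportal set of 5.

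The study asked whether lowering *Fos*, a subunit of the transcription factor AP-1, alters gene expression in old animals. Wild-type female C57BL/6 mice aged 24 months received an adeno-associated virus of serotype 8 (AAV8) through the tail vein. The virus encoded a hairpin that targets *Fos* (labelled shFOS, shFos below) or a non-targeting control (labelled shNT, NT below), and liver and kidney were taken 3 months later. RNA-seq was done on 4 libraries per tissue and treatment. The controls therefore shared the age, sex, strain and virus, but no animal without virus was analysed here. The vector is systemic, and the promoter driving the hairpin and the cells it reached were not given in the sources used here. The labels do not tie libraries to animals, so p-values measure the spread between these libraries.

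Blood flows through the liver lobule from the portal tract to the central vein, and hepatocytes along this path divide the metabolic work. Periportal hepatocytes receive blood rich in oxygen and amino acids. They break down amino acids and turn the released ammonia into urea. Pericentral hepatocytes capture the ammonia that escaped the urea cycle as glutamine. The pericentral programme depends on Wnt and R-spondin ligands from the endothelium of the central vein, which act through beta-catenin and TCF factors. The same ligands hold back periportal genes.

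The promoters show the sequence from which these genes are read. RefSeq promoters (mouse assembly GRCm38.p6, the assembly of mm10) were found for 5 of the 10 genes. The 250 bases before the RefSeq start are given for 1 periportal gene, *Hal*, and for 3 pericentral genes, 5′ to 3′ on the strand of the gene, because *Fos* and Wnt signalling act through the DNA motifs searched here. *Hal* lies at chr10:93488518-93488767 (+), *Glul* at chr1:153899679-153899928 (+), *Oat* at chr7:132576399-132576648 (-) and *Axin2* at chr11:108920099-108920348 (+). Capitals mark the motif letters found, TGANTCA for AP-1 and CTTTGAT for TCF, searched on both strands. N was allowed to be any base, and it is T in the *Hal* match.
Hal: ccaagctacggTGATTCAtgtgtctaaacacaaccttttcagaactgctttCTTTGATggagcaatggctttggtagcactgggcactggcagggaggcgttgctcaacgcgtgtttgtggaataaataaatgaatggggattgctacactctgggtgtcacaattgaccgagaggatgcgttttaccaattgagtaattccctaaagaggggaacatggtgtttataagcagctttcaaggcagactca
Glul: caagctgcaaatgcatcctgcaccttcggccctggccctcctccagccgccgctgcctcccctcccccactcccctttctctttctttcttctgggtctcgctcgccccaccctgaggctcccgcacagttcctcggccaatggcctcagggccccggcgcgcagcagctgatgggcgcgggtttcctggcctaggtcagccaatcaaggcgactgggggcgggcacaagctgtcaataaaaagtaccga
Oat: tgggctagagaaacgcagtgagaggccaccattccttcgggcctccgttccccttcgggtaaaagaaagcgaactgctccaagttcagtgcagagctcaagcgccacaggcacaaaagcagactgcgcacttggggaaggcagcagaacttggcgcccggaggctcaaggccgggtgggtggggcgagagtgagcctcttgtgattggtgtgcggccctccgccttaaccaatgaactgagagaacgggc
Axin2: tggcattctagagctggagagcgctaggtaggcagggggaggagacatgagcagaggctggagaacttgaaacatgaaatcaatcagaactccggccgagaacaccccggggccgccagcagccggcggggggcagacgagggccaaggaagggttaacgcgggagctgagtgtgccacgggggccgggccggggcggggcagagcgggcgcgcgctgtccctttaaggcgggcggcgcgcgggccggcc
Of the 5 promoters, including that of *Ass1*, *Hal* alone held either motif. Its AP-1 letters stood 239 to 233 bases before the start and its TCF letters 199 to 193 bases before it, without overlap. Over 32851 RefSeq promoter windows of the same length, 6.75% held the AP-1 letters and 3.21% the TCF letters. These matches are descriptions of the sequence, and binding was not measured.

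The libraries held 16652150 to 18300277 reads assigned to genes in the liver and 14194543 to 15534665 in the kidney. Values below are CPM, read counts scaled to a common library size by the TMM method within a tissue, as mean ± SD with n = 4 per group, unless another unit is named. Read numbers differed between all replicates by more than sampling noise. NT liver 4 stood apart from the other livers, with 27345 CPM of albumin (*Alb*) against 95719 to 170014 in the other 7, and values without it, or without another library, are given beside many of the results. *Fos* itself was 2.51 ± 1.08 CPM in the NT livers and 1.82 ± 0.637 CPM in the shFos livers, with overlapping groups (exact two-sided permutation test, p = 0.343). In the kidney it was 5.37 ± 1.02 CPM against 3.23 ± 0.929 CPM, without overlap (exact permutation test, p = 0.0286, the smallest that 4 against 4 libraries can give).

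In the livers, all 5 pericentral genes had lower fitted values with shFos and all 4 measurable periportal genes had higher ones. None of these differences passed the adjusted threshold of 0.05. The fifth periportal gene, *Ass1*, could not be measured. Across all 13144 genes tested in the liver, 0 (0.0%) passed after Benjamini-Hochberg adjustment in the edgeR fit, where the smallest adjusted p was 0.685. At an unadjusted p under 0.05, edgeR gave 897 liver genes (6.82%), 473 of them higher (3.6%) and 424 lower (3.23%). DESeq2 called 38 liver genes, and 0 of them were members. Of the 9 measurable members, 3 reached the unadjusted 0.05, all periportal and higher (*Gls2*, *Sds* and *Hal*). This count depended on single libraries, and was 1 (*Gls2*) without NT liver 1 or without shFos liver 3, and 2 without NT liver 3 or without shFos liver 1. Only *Gls2* separated the groups without overlap, as 567 of all genes (4.31%) did, 367 of them higher (2.79%) and 200 lower (1.52%).

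**Figure D1:**
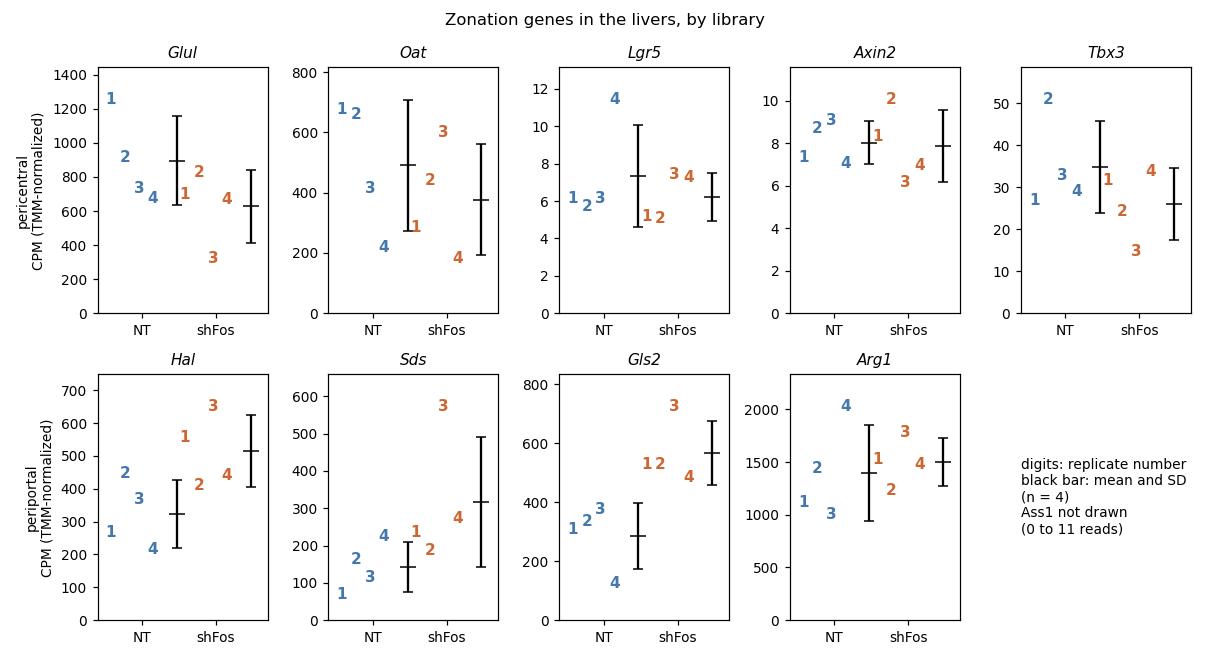
Level of each of 9 zonation genes in the 8 livers, in TMM-normalized CPM on axes that start at 0. Digits are single libraries by replicate number, and black bars are the mean and SD of 4 libraries. *Gls2* is the panel in which the groups do not overlap, with NT at 124 to 376 CPM and shFos at 482 to 725 CPM.

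*Glul* encodes glutamine synthetase, the enzyme that binds ammonia into glutamine, and lies on chromosome 1 at 153899944 to 153909723 (+ strand). The NT livers had 1255, 916, 735 and 674 CPM of *Glul*, and the shFos livers had 697, 828, 323 and 667 CPM. NT liver 1 was the highest and shFos liver 3 the lowest, and the groups overlapped between them. The means were 895 ± 261 CPM and 629 ± 215 CPM, a log2 fold change of -0.51 (SE 0.31, edgeR adjusted p = 0.739). It was -0.31 without NT liver 1 and -0.30 without shFos liver 3.

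*Oat*, on chromosome 7 at 132557478 to 132576398 (- strand), encodes ornithine aminotransferase, which moves the amino group of ornithine toward glutamate. Its levels were 675, 659, 414 and 219 CPM in the NT livers and 285, 441, 602 and 180 CPM in the shFos livers. The lowest library of each group was replicate 4, and the ranges overlapped almost completely. The log2 fold change was -0.38 (SE 0.43, edgeR adjusted p = 0.833). With 1 library left out it ran from -0.15 (without shFos liver 4) to -0.71 (without shFos liver 3), and it was -0.20 without NT liver 1, -0.22 without NT liver 2 and -0.64 without NT liver 4. *Oat* had the largest spread of the 9 genes, a pooled SD within groups of 0.760 on the log2 CPM scale against a median of 0.264 over all liver genes tested.

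*Tbx3*, *Axin2* and *Lgr5* are targets of Wnt signalling. *Tbx3* (chromosome 5, 119670669 to 119684724, + strand) encodes a transcription factor of pericentral hepatocytes and was 26.8, 50.9, 33.0 and 29.1 CPM in the NT livers and 31.7, 24.3, 14.7 and 33.7 CPM in the shFos livers. NT liver 2 was high and shFos liver 3 low, and the other 6 lay between 24.3 and 33.7 CPM. The log2 fold change was -0.42 (SE 0.28, edgeR adjusted p = 0.749), and it was -0.19 without NT liver 2 and -0.23 without shFos liver 3.

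*Axin2* (chromosome 11, 108920349 to 108950783, + strand), a feedback inhibitor of the pathway, was 7.32, 8.71, 9.06 and 7.04 CPM in the NT livers and 8.30, 10.1, 6.16 and 6.94 CPM in the shFos livers. Both the highest and the lowest liver belonged to the shFos group. Its log2 fold change was -0.03 (SE 0.18, edgeR adjusted p = 0.978), and its sign turned when single libraries were left out. It rested on 105 to 181 reads per liver.

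*Lgr5* (chromosome 10, 115450311 to 115587780, - strand) encodes a receptor for R-spondins. The NT livers had 6.14, 5.71, 6.14 and 11.4 CPM of *Lgr5* and the shFos livers had 5.16, 5.06, 7.40 and 7.24 CPM. NT liver 4 alone stood above the other 7. With it the log2 fold change was -0.25 (SE 0.26, edgeR adjusted p = 0.824), and without it 0.04, so the count of 5 pericentral genes with lower fitted values fell to 4. These values rest on 91 to 216 reads.

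Among the periportal genes, *Hal*, on chromosome 10 at 93488768 to 93519304 (+ strand), encodes histidine ammonia-lyase, the first step of histidine breakdown. Its levels were 267, 446, 367 and 216 CPM in the NT livers and 555, 410, 651 and 441 CPM in the shFos livers. NT liver 2 reached into the shFos range, and the other 3 NT livers lay below all shFos livers. The means were 324 ± 103 CPM and 514 ± 110 CPM, a log2 fold change of 0.67 (SE 0.25, edgeR adjusted p = 0.7025), with an exact permutation p = 0.0857.

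*Sds*, on chromosome 5 at 120476526 to 120483932 (+ strand), encodes serine dehydratase, which releases ammonia and pyruvate from serine. The NT livers had 69.7, 163, 115 and 225 CPM and the shFos livers 235, 186, 573 and 272 CPM. ShFos liver 3 was the highest, and NT liver 4 alone crossed into the shFos range. The log2 fold change was 1.14 (SE 0.43, edgeR adjusted p = 0.7025), with an exact permutation p = 0.0571. Without shFos liver 3 it was 0.69 (edgeR adjusted p = 0.891), and without NT liver 4 it was 1.44 (edgeR adjusted p = 0.611).

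*Gls2*, on chromosome 10 at 128194457 to 128210004 (+ strand), encodes the liver-type glutaminase that frees ammonia from glutamine for the urea cycle. The NT livers had 309, 336, 376 and 124 CPM and the shFos livers 529, 529, 725 and 482 CPM. Every shFos liver was above every NT liver, and NT liver 4 was the lowest of all. The means were 286 ± 111 CPM and 566 ± 108 CPM, a log2 fold change of 0.98 (SE 0.32, edgeR unadjusted p = 0.012, adjusted p = 0.7024). The exact permutation test gave p = 0.0286, the smallest possible. Without NT liver 4 the log2 fold change was 0.72 (SE 0.16, edgeR adjusted p = 0.573), and the 3 remaining NT livers averaged 340 ± 33.6 CPM.

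*Arg1*, on chromosome 10 at 24915221 to 24927484 (- strand), encodes arginase, the last enzyme of the urea cycle. It was 1113, 1440, 1007 and 2028 CPM in the NT livers and 1525, 1230, 1782 and 1475 CPM in the shFos livers. The shFos livers lay inside the NT range, whose upper end was NT liver 4. The log2 fold change was 0.11 (SE 0.25, edgeR adjusted p = 0.932), 0.33 without that library, and 0.0057, -0.0228 and 0.0096 without NT liver 1, NT liver 3 and shFos liver 3.

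*Ass1*, on chromosome 2 at 31470207 to 31520672 (+ strand), encodes argininosuccinate synthase, an abundant urea cycle enzyme of the liver. The count tables held 0, 2, 0 and 0 reads of *Ass1* in the NT livers and 11, 6, 3 and 2 in the shFos livers. All 4 NT livers were at or under the floor of 3 reads, so no fold change is given. The kidneys held 0 to 4 reads. A processed pseudogene, *Gm5424* (chromosome 10, 62071123 to 62072362, + strand), repeats the *Ass1* transcript. Over 1240 aligned bases, 1234 (99.5%) were the same. Of the 1547 windows of 150 bases (the read length) in the 1696-base *Ass1* transcript of GENCODE M21, 454 had 0 differences from *Gm5424* and 1096 (70.8%) had 3 or fewer. *Gm5424* itself had 0 reads in all 16 libraries. The other windows differed from it at more bases, and they too can have held no more than the 0 to 11 reads of the whole gene. Whether reads that fit both places were dropped was not tested, and *Ass1* is left out of the zone values below.

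Reads could also be shared for 3 other members, since counting ignored strand. In GENCODE M21, exons of *Glul* overlap *Teddm2* and *Mir8114*, those of *Sds* overlap *Plbd2* and those of *Gls2* overlap *Spryd4*. All of these are in the count tables. Whether they also overlap in the gene models used for counting was not tested. Where they do, reads on both genes would be among the 1.84 to 2.64% of reads per library recorded as ambiguous.

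To compare the zones by library, the log2 CPM of each gene was set against its mean over the NT livers and averaged over the zone. The pericentral means of the NT livers were 0.09, 0.21, -0.08 and -0.22, and those of the shFos livers were -0.29, -0.14, -0.50 and -0.37. Only NT liver 4 reached into the shFos range. The periportal means, over 4 genes, were -0.29, 0.32, 0.03 and -0.06 in the NT livers and 0.72, 0.44, 1.26 and 0.64 in the shFos livers, without overlap. The pericentral mean minus the periportal mean was 0.39, -0.11, -0.12 and -0.16 in the NT livers and -1.004, -0.59, -1.76 and -1.01 in the shFos livers. Every shFos liver was below every NT liver, and shFos liver 3 was the lowest. The mean of this difference was -1.09 ± 0.49 with shFos, against an SD of 0.26 in NT. From the fitted log2 fold changes it was -1.04, with the pericentral mean at -0.32 and the periportal mean at 0.73. It ranged from -1.20 to -0.82 as each library was left out, and was smallest in size without shFos liver 3. No test is given for this score, because the genes were chosen with results of these data known.

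**Figure D2:**
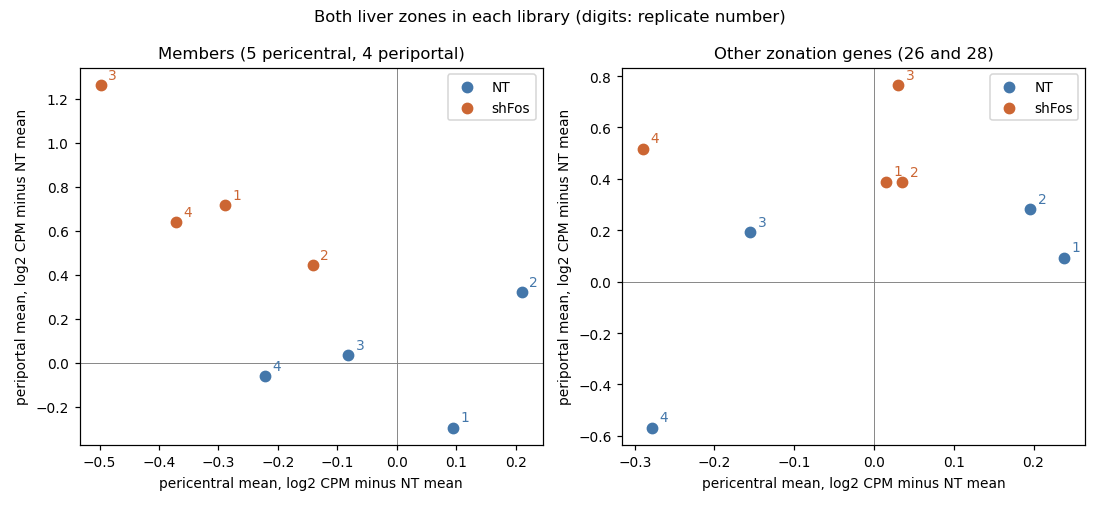
Periportal mean against pericentral mean of each liver, in log2 CPM minus the mean of the NT livers, for the members (left) and for other zonation genes (right). Points are libraries, with the replicate number beside them. On the left the 4 shFos livers lie above 0.44 on the periportal axis and below -0.14 on the pericentral axis.

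Ratios within a library need no scaling between libraries. There were 4.06, 2.72, 1.96 and 5.42 *Glul* reads per *Gls2* read in the NT livers and 1.32, 1.56, 0.446 and 1.38 in the shFos livers. These enzymes make and break glutamine, and their ratio was lower in every shFos liver than in any NT liver. The *Oat* to *Gls2* ratio was also without overlap, at 1.10 to 2.18 in NT and 0.374 to 0.834 in shFos. Both ratios divide by *Gls2*, the only member that kept the groups apart by itself, so they are not separate from that result. *Glul* and *Oat* alone overlapped. The *Glul* to *Arg1* ratio overlapped, at 0.332 to 1.13 in NT and 0.181 to 0.673 in shFos. In whole tissue, fewer cells of a zone and less RNA per cell cannot be told apart.

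Other zonation genes were taken from lists written with earlier results of these data known. Of 26 other pericentral genes, all passed the filter on low counts, and 11 had higher and 15 lower fitted values, with a median log2 fold change of -0.17 beside -0.01 over all genes. Over all 13144 genes tested in the liver, 6269 were higher and 6875 lower. Of the 26, 0 passed the adjusted threshold, and 2 reached the unadjusted 0.05, both lower, beside 3.23% lower over all genes. These 2 were *Cldn2*, a claudin of tight junctions, at -0.67 (SE 0.21) and the glutamate transporter gene *Slc1a2* at -0.92 (SE 0.34). The phosphatase gene *Lhpp* was at -0.69 (SE 0.36, edgeR unadjusted p = 0.0879). Of the 11 higher genes, *Cyp3a11* had the largest change of the list, at 1.51 (SE 1.65), and *Slc1a4* was at 0.43 (SE 0.29). The xenobiotic enzymes *Cyp2e1* and *Cyp1a2*, well known pericentral genes, were at -0.33 (SE 0.25) and -0.17 (SE 0.32). Without NT liver 4 the split was 6 higher and 20 lower.

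All 28 other periportal genes passed the filter, 26 higher and 2 lower, with a median of 0.37. Again 0 passed the adjusted threshold. Of the 28, 7 reached the unadjusted 0.05 and were higher, beside 3.6% higher over all genes. Another count, of groups without overlap, gave 5, all higher, beside 2.79% higher over all genes. *Etnppl*, which encodes ethanolamine-phosphate phospho-lyase, had 10.5, 26.5, 38.9 and 7.04 CPM in the NT livers and 80.5, 64.0, 218 and 41.8 CPM in the shFos livers. The groups did not overlap, shFos liver 3 was the highest, and the log2 fold change was 2.28 (SE 0.65). *Asl*, the urea cycle gene after *Ass1*, was 389, 478, 345 and 435 CPM against 628, 556, 631 and 521 CPM, and *Ftcd*, in the same histidine pathway as *Hal*, was 314, 296, 307 and 339 CPM against 400, 370, 520 and 431 CPM. Both kept the groups apart, with log2 fold changes of 0.50 (SE 0.15) and 0.46 (SE 0.14). Without NT liver 4 the list split into 22 higher and 6 lower, with a median of 0.25.

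The difference between the means of these other genes, pericentral minus periportal, was 0.14, -0.09, -0.35 and 0.29 in the NT livers and -0.37, -0.35, -0.74 and -0.81 in the shFos livers. NT liver 3 and shFos liver 2 were nearly equal, and every shFos liver was still the lower. Their pericentral means overlapped, at -0.28 to 0.24 in NT and -0.29 to 0.04 in shFos. Their periportal means did not, at -0.57 to 0.28 in NT and 0.39 to 0.77 in shFos.

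**Figure D3:**
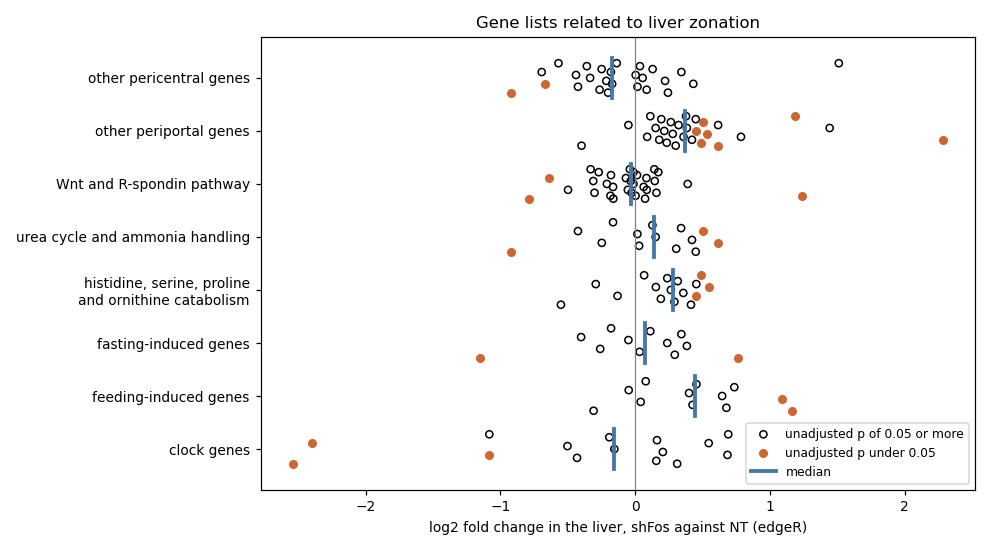
Log2 fold change of each gene in the liver, shFos against NT, by list. Open points have an unadjusted p of 0.05 or more, filled points a smaller one, and bars are list medians, at -0.17 for the other pericentral genes and 0.37 for the other periportal genes.

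The Wnt and R-spondin list, which holds the ligands above the pericentral genes, had 31 of its 35 genes measurable, with 12 higher and 19 lower, a median of -0.03 and 0 past the adjusted threshold. The central vein ligands *Rspo3*, *Wnt2* and *Wnt9b* had log2 fold changes of 0.14 (SE 0.22), 0.39 (SE 0.40) and -0.04 (SE 0.25), each smaller than its error, and *Wnt2* was 0.15 without NT liver 4. The median of the list was -0.09 without that library. *Sfrp1*, a secreted Wnt inhibitor, was at 1.24 (SE 0.38) without overlap, on only 4 to 33 reads. *Tcf7*, a TCF factor, and the Wnt target *Myc* were at -0.64 (SE 0.23) and -0.79 (SE 0.34), and *Myc* was -0.41 without NT liver 4.

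Around the periportal enzymes, the list of urea cycle and ammonia genes had 14 of 17 measurable, 10 higher and 4 lower, with a median of 0.14. Without NT liver 4 it split into 8 higher and 6 lower, with a median of 0.13. *Cps1*, the first enzyme of the urea cycle, was 1599, 2100, 1921 and 2148 CPM in the NT livers and 2723, 2471, 4181 and 2518 CPM in the shFos livers. The groups did not overlap, and its log2 fold change was 0.61 (SE 0.23). The list for breakdown of histidine, serine, proline and ornithine had 16 of 18 measurable, 13 higher and 3 lower, with a median of 0.28, which was 0.11 without NT liver 4 (12 higher, 4 lower). *Amdhd1* and *Uroc1*, which follow *Hal* in the histidine pathway, were at 0.55 (SE 0.21) and 0.49 (SE 0.20), both without overlap, and at 0.39 and 0.32 without NT liver 4. In both lists 0 genes passed the adjusted threshold. Both share genes with the lists above, so part of their counts repeats the same values. *Cps1*, *Asl*, *Uroc1* and *Ftcd*, for example, were also among the other periportal genes, and *Slc1a2* among the other pericentral genes. The paralog *Sdsl*, related to *Sds*, was at 0.24 (SE 0.48) and at 0.98 (SE 0.29) without NT liver 4, which held 32.1 CPM of it against 7.65 to 9.12 CPM in the other NT livers.

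Food intake and time of day also act on many hepatocyte genes, and genes that respond to them were measured in the same livers. Their relation to the zone difference was not tested. Of 12 feeding-induced genes, 10 had higher and 2 lower fitted values, with a median of 0.44 (9 and 3, with a median of 0.31, without NT liver 4). *Acly*, which makes acetyl-CoA for fat synthesis, was 133 to 211 CPM in NT and 284 to 525 CPM in shFos, without overlap, *Scd1* was at 1.09 (SE 0.42) and *Srebf1* at 0.46 (SE 0.21). The 12 fasting-induced genes split into 7 higher and 5 lower (6 and 6 without NT liver 4), with *Igfbp1* at -1.15 (SE 0.37, no overlap, -0.68 without NT liver 4), *Pdk4* at 0.76 (SE 0.25) and *Cpt1a* at -0.26 (SE 0.15). Of 15 clock genes, 7 were higher and 8 lower, with *Nr1d1* at -2.54 (SE 0.84), *Nr1d2* at -1.09 (SE 0.41) and *Dbp* at -2.40 (SE 0.97). *Dbp* was 14.9 CPM in NT liver 2 and at most 1.46 CPM in the other 7 livers. These 3 lists also held 0 genes past the adjusted threshold.

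The hepatocyte markers, all 10 measurable, summed to 76352 to 214778 CPM in the NT livers, lowest in NT liver 4, and to 129977 to 182310 CPM in the shFos livers. The same markers summed to 995 to 2436 CPM in the kidneys, so their level went with the labelled tissue. The 8 stellate cell and fibroblast markers, all measurable, summed to 243 to 354 CPM in NT and 359 to 478 CPM in shFos. These sums did not overlap, but NT liver 4 (354 CPM) and shFos liver 4 (359 CPM) were nearly equal. The 7 cholangiocyte markers, 6 of them measurable, overlapped, at 53.5 to 97.5 CPM in NT and 51.8 to 117 CPM in shFos. The 8 macrophage markers (203 to 1175 CPM against 256 to 486 CPM), the 9 lymphocyte markers (5.08 to 77.4 CPM against 24.7 to 51.8 CPM), the 7 neutrophil markers, 6 of them measurable (13.5 to 159 CPM against 4.49 to 44.5 CPM) and the 10 endothelial markers (159 to 192 CPM against 164 to 199 CPM) overlapped. The 9 kidney tubule markers summed to 1.10 to 5.72 CPM in the livers and to 12950 to 44130 CPM in the kidneys.

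The members also differed in how far they belong to the liver alone. Between the NT livers and NT kidneys, in a fit of all 16 libraries, 9982 of 15421 genes passed the adjusted threshold (64.7%), 4664 of them higher in the liver (30.2%). All 9 measurable members were higher in the liver and passed. They were chosen as liver genes, so this count does not test their tie to the liver. *Hal* and *Sds* did not pass the filter in the kidney alone and entered this fit through their liver reads. Among the pericentral genes the log2 differences were 1.25 (*Oat*, SE 0.34) and 1.54 (*Glul*, SE 0.28). They were 2.37 for *Axin2* (SE 0.30), 2.57 for *Lgr5* (SE 0.25) and 2.71 for *Tbx3* (SE 0.35). The periportal genes had larger ones, at 9.39 (*Gls2*, SE 0.59), 9.65 (*Sds*, SE 0.65), 10.89 (*Hal*, SE 0.64) and 10.90 (*Arg1*, SE 0.67). These differences depend on the level in both tissues, and do not rank the genes by their kidney level. The largest edgeR adjusted p among the 9 was 0.00406, for *Oat*. All 9 stayed past the threshold under all 15 alternatives to this fit.

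Per kilobase of exon, on one scale for both tissues, *Arg1* was the highest member in the NT livers at 884 ± 295 CPM per kb. *Glul* at 379 ± 109 and *Oat* at 293 ± 129 CPM per kb followed, with overlapping ranges, and then came *Sds* at 119 ± 56.0, *Gls2* at 116 ± 44.96 and *Hal* at 82.1 ± 26.1 CPM per kb, which overlapped each other. The lowest *Oat* liver, at 131 CPM per kb, also lay inside the *Sds* and *Gls2* ranges. *Tbx3* at 7.43 ± 2.34, *Axin2* at 2.05 ± 0.255 and *Lgr5* at 1.01 ± 0.379 CPM per kb were the lowest, and their ranges did not overlap with each other. In the NT kidneys *Glul* (131 ± 25.0) and *Oat* (123 ± 7.73 CPM per kb) had overlapping ranges. *Tbx3* was at 1.13 ± 0.233, *Axin2* at 0.397 ± 0.0594 and *Lgr5* at 0.170 ± 0.0274 CPM per kb. The means of *Hal*, *Sds*, *Gls2* and *Arg1* ran from 0.0419 to 0.459 CPM per kb, a range that held those of *Axin2* and *Lgr5*. The related gene *Arg2* was higher than *Arg1* in the kidney, at 16.4 ± 1.64 CPM per kb, and lower than it in the liver, at 0.367 ± 0.322 CPM per kb.

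**Figure D4:**
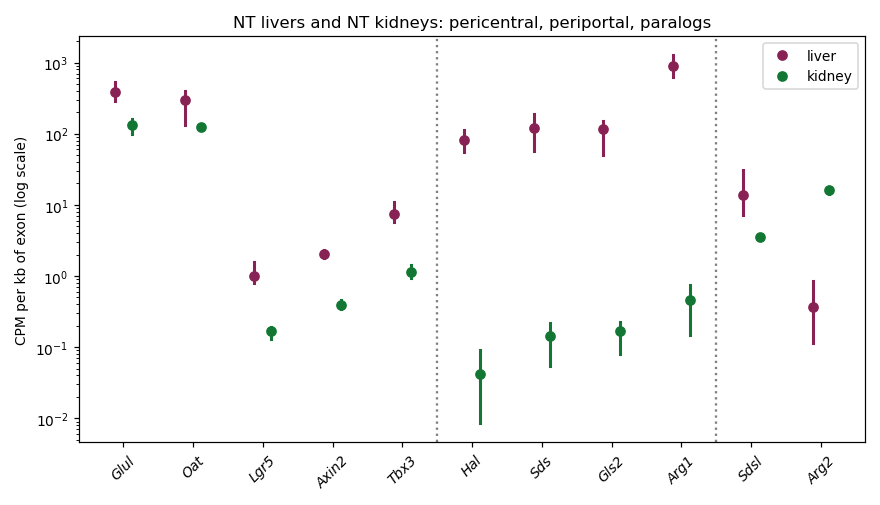
Level in NT livers and NT kidneys on a log axis, in CPM per kb of exon. Points are means and lines run from the lowest to the highest of 4 libraries. The means of the periportal genes drawn are at 82.1 CPM per kb or more in the liver and at 0.459 or less in the kidney. *Arg2* lies the other way round, and *Ass1* is not drawn. Kidney means of *Axin2* and *Lgr5*, at 0.397 and 0.170, are also under 0.459.

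The few periportal reads of the kidneys were compared with albumin reads from the same libraries. Per 1000 *Alb* reads there were 7.65, 14.8, 17.96 and 57.3 *Arg1* reads in the NT kidneys and 6.54, 13.2, 9.67 and 74.2 in the NT livers. Replicate 4 was the highest in both tissues for *Arg1*, *Gls2* and *Hal*. For *Sds* and *Cps1* it was the highest in the NT livers, at 8.23 and 78.6, but replicate 2 was the highest in the NT kidneys, at 14.8 and 25.4. NT liver 4 held 516660 *Alb* reads, the fewest of the livers, which raises its values per *Alb* read. For *Gls2* the values were 3.83, 12.7, 14.5 and 25.5 in the NT kidneys and 1.82, 3.09, 3.61 and 4.55 in the NT livers, higher in the kidney for every number. *Hal* ran from 1.71 to 17.5 in the NT kidneys and from 1.57 to 7.89 in the NT livers, and *Sds* from 1.71 to 14.8 and from 0.410 to 8.23. The kidney values of *Hal* and *Sds* rest on 1 to 11 reads per library, and those of *Gls2* on 6 to 17. Whether these reads came from kidney cells was not tested.

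In the kidney, 0 of 14892 genes (0.0%) passed the adjusted threshold in edgeR, whose smallest adjusted p was 0.065, and 4762 (32.0%) reached the unadjusted 0.05, 2547 of them higher (17.1%) and 2215 lower (14.9%), while DESeq2 called 2732. Of the 7 members that passed the filter there, 2 did not overlap between groups, 1 higher and 1 lower, beside 2562 of all genes (17.2%). Those 2562 were 1364 higher (9.16%) and 1198 lower (8.04%). *Oat* was 423, 379, 431 and 407 CPM in the NT kidneys and 434, 467, 496 and 505 CPM in the shFos kidneys. Every shFos kidney was above every NT kidney, by a log2 fold change of 0.21 (SE 0.09, edgeR adjusted p = 0.151). *Lgr5* was 2.63, 2.83, 1.89 and 2.51 CPM against 1.54, 1.86, 1.57 and 1.69 CPM, lower in every shFos kidney on 22 to 42 reads. Its log2 fold change was -0.56 (SE 0.22, edgeR adjusted p = 0.122).

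*Glul* was 761, 479, 609 and 603 CPM in the NT kidneys and 552, 804, 913 and 860 CPM in the shFos kidneys. Here shFos kidney 1 lay inside the NT range and the other 3 above it, and the log2 fold change was 0.35 (SE 0.19, edgeR adjusted p = 0.229). ShFos kidney 1 was also the highest kidney for *Axin2*, at 6.43 CPM against 2.07 to 3.64 CPM in the other 7, and for *Tbx3*, at 21.1 CPM against 7.01 to 13.1 CPM. Without it the log2 fold changes of *Axin2* and *Tbx3* turned from 0.18 to -0.34 and from 0.16 to -0.32. *Gls2* and *Arg1* had only 3 to 49 reads per kidney, with the most in shFos kidney 1 (32 and 49). *Hal* and *Sds* did not pass the filter there.

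**Figure D5:**
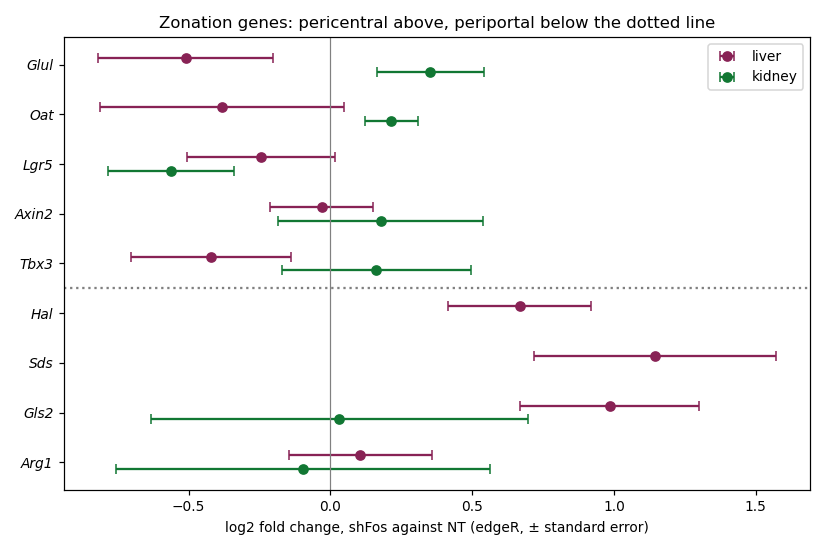
Log2 fold change of the members, shFos against NT, in liver and kidney, with the standard error from edgeR (4 libraries per group). In the liver, points for the pericentral genes lie at -0.51 to -0.03 and those for the periportal genes at 0.11 to 1.14; *Hal* and *Sds* have no kidney point.

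The difference between the tissues in the shFos effect was tested directly over 15421 genes, of which 0 (0.0%) passed the adjusted threshold and 2478 (16.1%) reached the unadjusted 0.05, 1210 of them higher in the liver term (7.85%) and 1268 lower (8.22%). *Glul* had the only member value under the unadjusted 0.05, -0.84 on the log2 scale (SE 0.39, edgeR unadjusted p = 0.0473, adjusted p = 0.306), being lower with shFos in the liver and higher in the kidney. With a replicate block its unadjusted edgeR p was 0.0528, so that 0 members were under 0.05, and with 1 library left out it ran from 0.0196 to 0.115. The value for *Gls2* was 0.96 (SE 0.72, edgeR adjusted p = 0.542) and that for *Oat* -0.58 (SE 0.47, edgeR adjusted p = 0.574). With 1 library left out, the *Gls2* value ran from 0.60 to 1.90. It was 1.90 without shFos kidney 1 (edgeR unadjusted p = 0.0119, adjusted p = 0.0948). None of the members was therefore shown to respond differently in the liver and the kidney.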

How the data were processed

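Total RNA was extracted from frozen liver and kidney, and libraries were sequenced as read pairs. Per the labels and methods, the authors trimmed reads (Trimmomatic 0.39), aligned them to mm10 (HISAT2 2.2.1) and counted them per gene without regard to strand (HTSeq 0.12.4). The deposited values are raw counts. The 5 summary lines of each table were left out. They gave 13.4 to 26.7% of reads in no gene, and the line for reads with several places was 0 in all libraries. Libraries were grouped by their labels, which name no batches. Genes were kept by filterByExpr and tested on the counts with edgeR 4.0.16 (TMM, robust quasi-likelihood test, Benjamini-Hochberg over all genes), per tissue for shFos against NT and over all 16 libraries for the comparisons of tissues. Zone values used log2 CPM with a prior count of 2. Exact two-sided permutation tests covered all 70 assignments of 8 libraries. A floor of 3 reads corresponds to 0.164 to 0.211 CPM, for counting error only. The test script was checked on simulated data.

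Gene models and exon lengths came from GENCODE M21, which gave GC content and length for 98.2% of genes, and promoters from RefSeq. The members and all lists were chosen with earlier results of these data known. The genes named were all members, the paralogs *Arg2* and *Sdsl* (a further item of this rule is not reported here), 3 central vein ligands and, from each other list, the 3 genes with the smallest unadjusted liver p. *Cyp2e1*, *Cyp1a2*, *Cyp3a11* and *Slc1a4* were named after their values were seen. Alternatives were DESeq2 1.42.0, RLE scaling, 2 other filters, a GC offset, a replicate block, a fit of all libraries and leaving out each library. Data on other promoters and on proteins were not used here.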

Additional observations from a re-analysis of the deposited data

Results flagged for a closer look

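Of 40 sets of 4 values examined, 2 held a library far from the other 3 by Dixon's criterion, and chance alone gives about 2. In the NT livers, *Lgr5* was 11.4 CPM in replicate 4 and 5.71 to 6.14 CPM in the other 3. The difference of zone means, pericentral minus periportal, was 0.39 on the log2 scale in NT liver 1 and -0.16 to -0.11 in the other 3 NT livers. NT liver 1 lay on the side away from the shFos livers, which had -1.76 to -0.59. Without NT liver 4 the sign of the *Lgr5* fold change in the liver turns.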

How the results depend on the processing

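The liver zone difference kept its sign under all 15 alternatives, from -1.21 to -0.82, and 0 members were called for shFos in the liver, in the kidney or in the difference between them under any alternative run. Counts of all genes moved. DESeq2 gave 38 genes in the liver, 2732 in the kidney and 341 for the difference, and the fit of all 16 libraries gave 987 in the kidney. With 1 library left out, the kidney count ran from 0 to 4173 (without shFos kidney 1; 3 without NT kidney 4) and that of the difference from 0 to 1230 (without shFos kidney 1). In the liver, with 1 library left out, log2 fold changes changed sign in these members, ranging from -0.17 to 0.0632 for *Axin2*, -0.0228 to 0.33 for *Arg1*, -0.36 to 0.0372 for *Lgr5*; in the kidney -0.97 to 0.35 for *Gls2*, -1.03 to 0.24 for *Arg1*, -0.34 to 0.35 for *Axin2*, -0.32 to 0.35 for *Tbx3*; and for the difference between tissues -0.95 to 1.09 for *Hal*, -0.16 to 1.07 for *Arg1*, -0.42 to 0.25 for *Axin2*. Differences in mean CPM turned likewise, in the liver -1.69 to 0.22 for *Lgr5*, -0.90 to 0.40 for *Axin2*, -23.9 to 316 for *Arg1*, and in the kidney -0.59 to 0.86 for *Axin2*, -1.86 to 2.83 for *Tbx3*, -0.39 to 0.22 for *Gls2*, -0.70 to 0.20 for *Arg1*.

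Numbers shared by treated and control libraries did not pair them: deviations of same-numbered libraries correlated at -0.26 to 0.04 in the liver and -0.17 to 0.12 in the kidney. Between liver and kidney they correlated at 0.12 to 0.33 in NT (4 of 4 best with their own number) and 0.04 to 0.15 in shFos (3 of 4). With a replicate block, 0 genes passed in the liver, the kidney and the difference, 10219 passed between the tissues, and the liver zone difference was -1.09. With the block, kidney *Gls2* was -0.26 (-0.10 with the GC offset as well), and the difference for *Hal* was 0.0096 (0.0015 with the GC offset). It changed no adjusted call for a member. Depth limits *Lgr5* and *Axin2*, at 91 to 216 reads per liver, and *Ass1*, which had too few reads for a fold change.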
